A study of Mus musculus with 187 samples.

Results

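The Tcstv genes (two-cell-stage, variable group) of the mouse form a small family of closely related coding genes. Tcstv1, Tcstv3, AF067061, Gm20767 and the more distant AF067063 were followed in single embryos. They were taken by name from the deposited tables, and all 5 were found in each, among 8735 genes in the table of embryos injected with sperm RNA, 8805 genes in the table of embryos injected with tRFs and 23534 features in the table of 4-cell embryos. Genes of this family are transcribed for a short time when the mouse embryo first activates its own genome at the 2-cell stage, together with the Zscan4 genes and transcripts started by the MERVL retroelement. In mouse embryonic stem cells, where the same group of genes is on in rare 2-cell-like cells, Tcstv1 and Tcstv3 have been described as factors that lengthen telomeres. No such role is given here to AF067061, AF067063 or Gm20767.

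RNA was measured in 186 single embryos of the FVB strain, whose parents, sperm and oocyte donors alike, were kept on the control diet; fertilisation was done in vitro and the zygotes were injected. Of the embryos collected with 2 cells, 46 had been injected with sperm small RNA from males on a low protein diet and 42 with that of control males. A further 26 had received a synthetic tRF-GlyGCC with modified bases, 6 had received tRF-GluCTC and 11 had received H3.3-GFP mRNA as the control. The tRFs are pieces cut from transfer RNAs, here those of glycine and glutamate. At the 4-cell stage, 27 embryos had received an antisense oligonucleotide to tRF-GlyGCC and 28 had received H3.3-GFP mRNA. Injection was 2 h after fertilisation and the 2-cell embryos were taken at 32 h, while no time is given for the 4-cell embryos. Embryos positive for GFP were collected one by one. The column heads of the authors' 4-cell comparison use the name tRFGGunmod and not antisense, so the identity of the injected RNA is uncertain, and antisense here follows the labels. The end code of each embryo's title was taken as its batch, lettered A to F for sperm RNA, G and H for tRFs and J to R (without O) for 4-cell embryos. Batch H held every tRF-GluCTC embryo, batch R held GFP embryos and no antisense embryo, and batch D held 1 control embryo. The labels do not tie embryos to males, litters or sperm RNA preparations, and p-values therefore speak of the spread among the embryos measured.

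The 2-cell tables held expected counts, with median totals of 1809000 to 2291600 per embryo in the 5 groups and a range of 644040 to 4563600, and levels are given as CPM, counts scaled to a common library total. The 4-cell table held FPKM (fragments per kilobase of transcript, scaled to the total), which keep no depth, so the depth of those embryos is unknown. All 9 markers of the 2-cell stage (Zscan4, Tdpoz and Usp17l genes, Zfp352 and Arg2) were listed in every group, and Usp17la averaged under 1 FPKM in GFP embryos at the 4-cell stage. All 8 markers of cumulus cells averaged under 1 FPKM at the 4-cell stage and summed to 0.008 to 2.23 FPKM in antisense embryos and 0.008 to 1.2 FPKM in GFP embryos, where 0.008 stands for every marker listed at 0. The 6 sperm markers summed to 0.006 to 17.2 FPKM in antisense embryos (median 1.35) and 0.006 to 10.6 FPKM in GFP embryos (median 1.43). Of these, Prm1, Tnp1, Tnp2, Odf1 and Akap4 averaged under 1 FPKM in both groups, and Prm2 did not. Those of cumulus cells and sperm were not among the rows of the 2-cell tables. In a whole embryo, fewer cells transcribing a gene and less RNA per cell cannot be told apart.

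The 5 genes lie in 1 cluster on chromosome 13 of the mouse genome (GRCm38, which is the mm10 build of the authors' alignment), between positions 119827961 and 120318178, a span of 490.2 kb that holds 27 genes in the GENCODE annotation. Of these 14 are protein-coding and 10 are pseudogenes. AF067063 (ENSMUSG00000094237) stands at 119827961 to 119830216 on the minus strand and Tcstv1 (ENSMUSG00000096284) at 119893388 to 119894785 on the minus strand. Gm20767 (ENSMUSG00000096323) stands at 120140246 to 120155335, AF067061 (ENSMUSG00000095071) at 120263114 to 120264517 and Tcstv3 (ENSMUSG00000095821) at 120316878 to 120318178, all on the plus strand. The coding sequences had 492 to 516 bases with the stop codon. Those of Tcstv1, Tcstv3, AF067061 and Gm20767 were 92.6 to 95.5% identical in pairs, while AF067063 was 77.1 to 79.7% identical to the other members. The stretch of 120 coding bases below, bases 19 to 138 of each coding sequence and 1 to 120 of AF067063, shows how close the members are and why their reads are hard to assign. Capitals mark bases that differ from Tcstv3 (GENCODE transcripts, 5′ to 3′, coding strand).
Tcstv3: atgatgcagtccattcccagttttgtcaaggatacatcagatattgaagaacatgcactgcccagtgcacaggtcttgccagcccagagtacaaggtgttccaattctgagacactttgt
Tcstv1: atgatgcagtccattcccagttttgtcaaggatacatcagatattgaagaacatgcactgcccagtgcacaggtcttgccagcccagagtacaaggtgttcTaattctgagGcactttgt
AF067061: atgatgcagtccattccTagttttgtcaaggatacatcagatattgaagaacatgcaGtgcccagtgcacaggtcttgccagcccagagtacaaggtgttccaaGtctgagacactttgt
Gm20767: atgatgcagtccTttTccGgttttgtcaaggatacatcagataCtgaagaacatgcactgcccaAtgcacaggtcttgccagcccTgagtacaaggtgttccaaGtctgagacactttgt
AF067063: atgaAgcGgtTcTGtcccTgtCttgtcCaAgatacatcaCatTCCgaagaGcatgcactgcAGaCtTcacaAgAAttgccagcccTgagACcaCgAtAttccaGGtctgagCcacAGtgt
In this stretch Tcstv1 differed from Tcstv3 at 2 bases, AF067061 at 3, Gm20767 at 7 and AF067063 at 32.

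This likeness bears on the counts themselves. Of all windows of 50 bases in the annotated transcripts, the share found in no other GENCODE gene was 85% for Tcstv1, 76.6% for AF067061, 68.6% for Tcstv3, 29.8% for Gm20767 and 29.3% for AF067063. Gm20767 shared 60.8% of its windows with Gm21761, and AF067063 shared 70.7% of its windows with Gm21731. These are 2 genes of the same cluster outside the members. Gm21761 is on the list of 2-cell genes counted below, and Gm21731 was not followed here. An expected count that is not whole (to within 1e-06) holds reads divided between genes. Values listed at 0 were left out, and no member had one. Of all values above 0, 85.2% were whole in the sperm RNA table and 85.4% in the tRF table. For AF067063 the count was whole in 62.5% of sperm RNA embryos and 79.1% of tRF and GFP embryos, and for the other members in 0 to 2.33% of embryos. Some reads of Tcstv1, Tcstv3, AF067061 and Gm20767 were thus divided among near-identical sequences in nearly every embryo. A count that is not whole does not tell how many reads were divided, and the shares over all values take in genes of every level. A level of 1 of these genes and a difference between 2 of them are therefore uncertain to an unknown extent.

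At the 2-cell stage the family was abundant, and the level of each member differed many-fold between embryos of 1 group. The 5 genes together took 0.135 ± 0.0879% of all counts with low protein sperm RNA (SD, n = 46), 0.207 ± 0.176% with control sperm RNA (n = 42), 0.176 ± 0.156% with tRF-GlyGCC (n = 26), 0.190 ± 0.114% with tRF-GluCTC (n = 6) and 0.186 ± 0.0695% with GFP (n = 11). In single embryos the share ran between 0.00765% and 0.865%. To set genes and stages beside each other, each value was divided by transcript length (FPKM were used as they were). Each gene was placed by its percentile among the same 8198 genes of its own embryo. These have an annotated length and are listed for every group. Of the 23534 features at the 4-cell stage, those not listed for every 2-cell group were left out. With GFP mRNA at the 2-cell stage the median embryo had AF067063 at the 99.4th percentile, Tcstv3 at 99.0, AF067061 and Gm20767 at 97.5 and Tcstv1 at 94.8, with the longest annotated transcript as length. With the shortest, a choice made after seeing the data, the medians were 95.1 for AF067063, 92.8 for Gm20767, 92.8 for Tcstv3, 82.6 for AF067061 and 72.9 for Tcstv1.

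At the 4-cell stage the members parted into genes low and genes still high among the 8198 genes listed for every group. With GFP mRNA the median embryo had Tcstv1 at the 26.7th percentile at the 4-cell stage, against 94.8 at the 2-cell stage. Tcstv3 was at 37.2 at the 4-cell stage and 99.0 at the 2-cell stage, and AF067061 at 28.3 and 97.5. The GFP embryos of the 2 stages did not overlap in Tcstv3, at 8.10 to 68.6 at the 4-cell stage and 96.7 to 99.6 at the 2-cell stage, and with the shortest transcript as length 80.2 to 97.1 at the 2-cell stage. Tcstv1 (3.75 to 52.8 at the 4-cell stage, 81.3 to 97.5 at the 2-cell stage) and AF067061 (2.49 to 53.9 and 73.9 to 99.0) did not overlap with the longest transcript, but did with the shortest, at 47.5 to 87.04 and 35.9 to 94.0 at the 2-cell stage. AF067063 was at 91.9 at the 4-cell stage (77.4 to 98.8) and 99.4 at the 2-cell stage (97.1 to 99.8), and Gm20767 was at 78.9 (59.5 to 94.3) and 97.5 (88.4 to 99.0), with ranges that overlap. The ratio of AF067063 to Tcstv3 per length, taken within each GFP embryo, had a median of 40.2 at the 4-cell stage (5.09 to 459, n = 28) and 1.16 at the 2-cell stage (0.731 to 3.12, n = 11), again without overlap. Its median to Gm20767, the closest member in level at the 4-cell stage, was 3.51 (0.474 to 18.4) at the 4-cell stage and 2.29 (0.788 to 8.93) at the 2-cell stage, where the shortest transcript gave 1.23 (0.422 to 4.79). The stages were processed into different units and come from different embryos and batches, so stage, unit and batch cannot be told apart, and no test was made between them. The share of all 8198 genes without overlap between the stages is not given here. A lack of overlap is therefore not shown to be particular to these members. For Gm20767 the authors' own group FPKM at the 4-cell stage were far lower than the values used here, as given below.

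**Figure D1:**
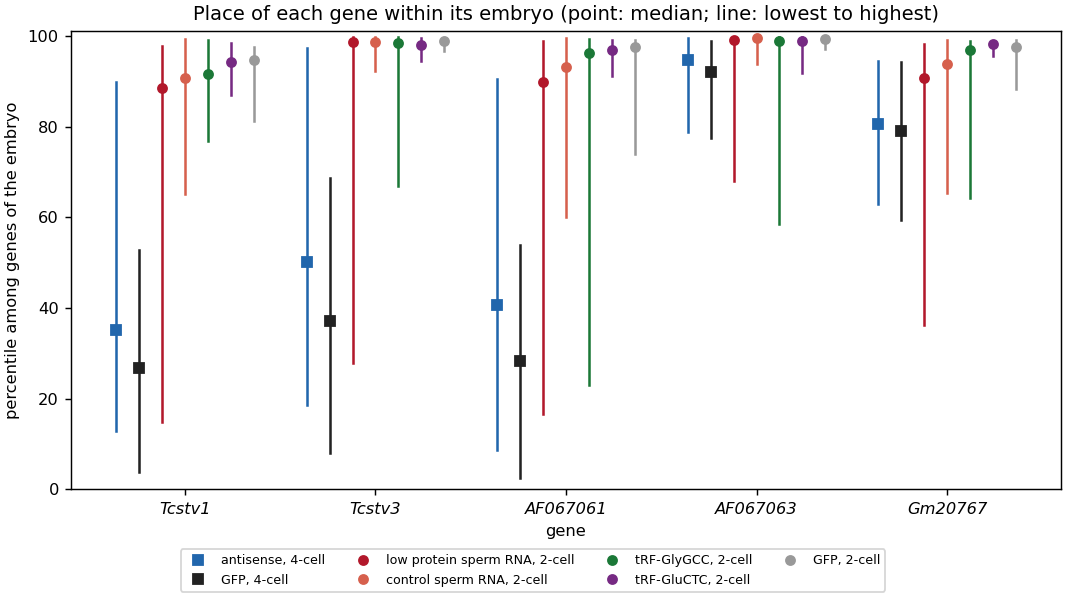
Percentile of each gene within its embryo, among the 8198 genes listed for every group, after division by transcript length. Squares are antisense and GFP embryos at the 4-cell stage, and circles are the 5 groups at the 2-cell stage. The point is the median embryo and the line runs from the lowest to the highest embryo. Tcstv1, Tcstv3 and AF067061 have medians of 26.7 to 50.1 at the 4-cell stage, where AF067063 and Gm20767 have medians of 78.9 to 94.8, and medians of 88.6 to 99.0 at the 2-cell stage, taken with the longest annotated transcript.

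The comparison of low protein with control sperm RNA asks whether the diet of the male changes the early embryo through small RNA of sperm. All 5 members had lower estimates with low protein sperm RNA, and none passed the test. Tcstv1 had 2.25, 105 and 413 CPM in the lowest, median and highest of 46 low protein embryos, against 30.99, 125 and 1089 CPM in 42 control embryos. Tcstv3 had 3.65, 269 and 1268 CPM in low protein embryos and 81.6, 297 and 2467 CPM in control embryos. The groups overlapped over most of their range, with 17 of 46 low protein embryos above the control median in Tcstv1 and 21 of 46 in Tcstv3. AF067061 had 2.25, 98.3 and 626 CPM with low protein sperm RNA and 23.1, 142 and 1636 CPM with control sperm RNA. Gm20767 had 12.4, 140 and 489 CPM with low protein and 34.95, 184 and 1352 CPM with control sperm RNA. AF067063 had 21.7, 467 and 1950 CPM with low protein and 110 (lowest), 620 and 2549 CPM with control sperm RNA. In each of the 5 genes the highest embryo was a control embryo and the lowest a low protein embryo.

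By edgeR's quasi-likelihood test with batch as a term, the log2 difference of low protein from control was -0.71 ± 0.33 (SE) for AF067061, -0.62 ± 0.25 for Tcstv1, -0.56 ± 0.27 for Gm20767, -0.44 ± 0.25 for Tcstv3 and -0.29 ± 0.20 for AF067063, with an adjusted p (Benjamini-Hochberg over all 8721 genes tested) of 1.0 in each. In this comparison edgeR called 8 of 8721 genes, or 0.0917%, and 0 of the 5 members, and DESeq2 also called 0 of the 5. Without adjustment, edgeR gave p = 0.0151 for Tcstv1, 0.0318 for AF067061 and 0.0392 for Gm20767, and 1.53% of all genes were lower at an unadjusted p under 0.05. The median over the 5 members was -0.56, against 0.02 over all genes tested. Within batches, Tcstv1 and AF067063 had lower means of the log2 level with low protein sperm RNA in 6 of 6 batches, Tcstv3 and AF067061 in 5 of 6 and Gm20767 in 4 of 6.

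The batches differed in size of that difference. In batch E, which held 25 low protein and 17 control embryos, Tcstv3 averaged 375 CPM with low protein sperm RNA and 327 CPM with control sperm RNA. In batch F it averaged 401 CPM in 3 low protein embryos and 1111 CPM in 7 control embryos. The 2 control embryos highest in Tcstv3, numbers 19 and 23, were both in this batch. They had 2467 and 2274 CPM of Tcstv3 and 1636 and 1464 CPM of AF067061, with 1219700 and 1338100 counts in total. Control embryo 21 of batch C had 1570 CPM of AF067061, with 758140 counts in total. In batch D the 2 low protein embryos, numbers 24 and 44, had 16.9 and 3.65 CPM of Tcstv3, against 104 CPM in the only control embryo of that batch. These 2 embryos were also the lowest in AF067061, at 4.41 and 2.25 CPM, with 3267200 and 3506600 counts in total. Without batch D the estimate for Tcstv1 was -0.52 and that for AF067061 was -0.59 on the log2 scale, and without batch E they were -1.10 and -1.29. Median totals were 2291600 counts with low protein and 1967200 with control sperm RNA. Across these embryos total counts had a Spearman's rho of -0.46 to -0.31 to the members, with batch means subtracted. The part of total counts in the low protein difference was not tested.

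**Figure D2:**
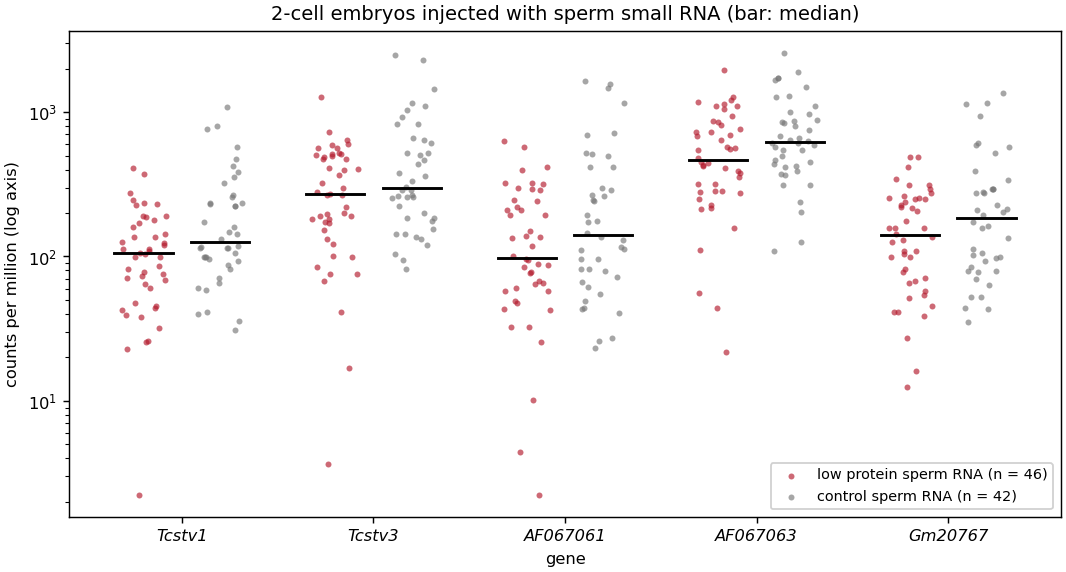
CPM (log axis) of each gene in 46 embryos injected with low protein sperm RNA and 42 injected with control sperm RNA, 1 point per embryo with a bar at the median. The groups overlap in every gene, the medians are lower with low protein sperm RNA, and in AF067061 the highest point is a control embryo at 1636 CPM.

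The spread between embryos was tested on the same values. Batch means were subtracted, and absolute deviations were taken from the group median. Their mean for AF067061 was 1.08 with low protein and 1.27 with control sperm RNA on the log2 scale. That for Tcstv3 was 0.87 and 0.92. The difference was within error in all 5 members (limma on absolute deviations, adjusted p of 0.989 to 1.0). That test called 0 of 8721 genes (0%), and 404 had an unadjusted p under 0.05.

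The tRFs were compared with GFP mRNA and with each other at the 2-cell stage, where the groups overlapped in every member. Tcstv3 had 16.1, 295 and 3607 CPM in the lowest, median and highest of 26 tRF-GlyGCC embryos, 122, 238 and 977 CPM in 6 tRF-GluCTC embryos, and 145, 365 and 629 CPM in 11 GFP embryos. Tcstv1 had 46.9, 133 and 1290 CPM with tRF-GlyGCC, 85.97, 196 and 607 CPM with tRF-GluCTC, and 63.4, 171 and 349 CPM with GFP. AF067061 had 2.93, 230 (median) and 1553 CPM with tRF-GlyGCC, 126.4, 280 (median) and 828 CPM with tRF-GluCTC, and 40.7, 294 and 684 CPM with GFP. The widest range was that of tRF-GlyGCC in each of these genes, and it came from 2 embryos of batch G. Embryo 5 of that group was the highest in all 5 genes, and embryo 18 was the lowest in all 5. AF067063 had 12.7, 394 and 3118 CPM with tRF-GlyGCC, 101.3, 390 (median) and 1287 CPM with tRF-GluCTC, and 179, 509 and 1213 CPM with GFP. Gm20767 had 25.9, 358 and 785 CPM with tRF-GlyGCC, 227, 529 and 722.9 CPM with tRF-GluCTC, and 110 (lowest), 330 (median) and 836 CPM with GFP.

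By edgeR the log2 difference of tRF-GlyGCC from GFP was between -0.14 and 0.20 in the 5 members, and that of Tcstv3 was 0.20 ± 0.39 (SE; 95% interval -0.57 to 0.96). Leaving out tRF-GlyGCC embryo 5 gave -0.20 for Tcstv3. The difference of mean log2 levels within batches was negative in 2 of 2 batches for Tcstv1, Tcstv3, AF067061 and Gm20767 and in 1 of 2 for AF067063, and was -0.26 in both batches for Tcstv3, of opposite sign to the edgeR estimate. The difference of tRF-GluCTC from GFP was between 0.22 and 0.62, and that of Tcstv1 was 0.62 ± 0.51 (-0.38 to 1.63). Leaving out tRF-GluCTC embryo 6, the highest of its group in Tcstv1, Tcstv3, AF067061 and AF067063, gave 0.12 for Tcstv1, -0.13 for Tcstv3, -0.28 for AF067061 and -0.0388 for AF067063 in this comparison. Within batch H, which holds all tRF-GluCTC embryos, the difference of mean log2 levels from GFP was -0.0496 for Tcstv3 and -0.14 for AF067061, again of opposite sign to edgeR, and 0.21 to 0.27 for the other members. The difference of tRF-GlyGCC from tRF-GluCTC was between -0.62 and -0.26, and that of Tcstv1 was -0.62 ± 0.45 (-1.51 to 0.28). The adjusted p was 1.0 in all of these comparisons, which share their GFP or tRF embryos. edgeR called 0 of 5 members and 0 of 8804 genes (0%) in each. At an unadjusted p under 0.05 were 0 of 5 members in each, against 285 genes (3.24%) in tRF-GlyGCC over GFP, 305 (3.46%) in tRF-GluCTC over GFP and 194 (2.2%) in tRF-GlyGCC over tRF-GluCTC. DESeq2 called 0 of the 5 members in each and 0, 1 and 1 genes in that order. The intervals reach past a 2-fold difference in several cases, so at these numbers of embryos the members' levels are not shown to be alike.

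**Figure D3:**
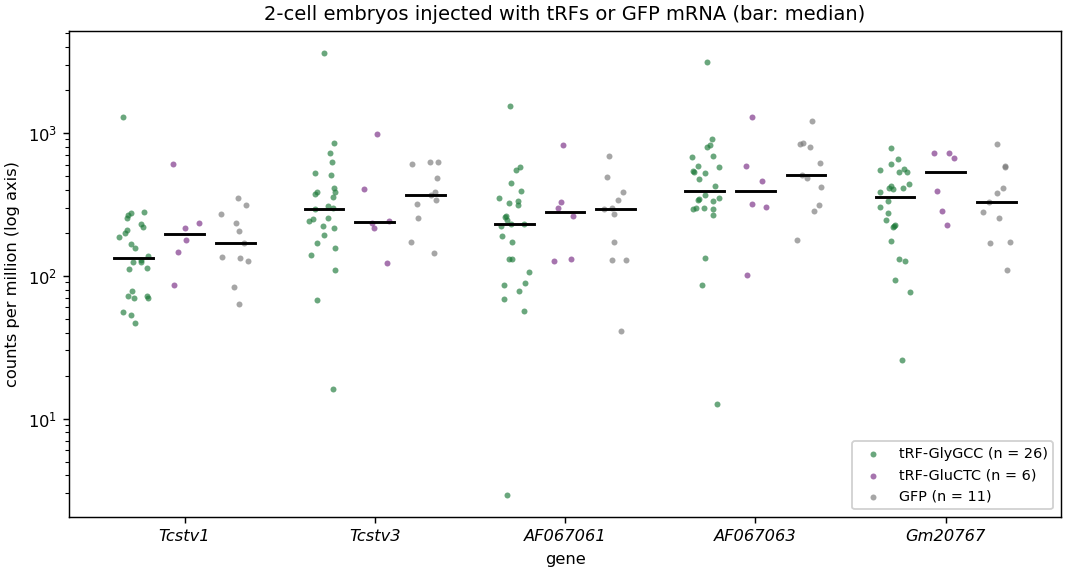
CPM (log axis) of each gene in 26 tRF-GlyGCC, 6 tRF-GluCTC and 11 GFP embryos at the 2-cell stage, 1 point per embryo with a bar at the median. The groups overlap in every gene, and the highest and lowest points of Tcstv3, at 3607 and 16.1 CPM, are both tRF-GlyGCC embryos.

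At the 4-cell stage the antisense group held embryos with far more Tcstv1, Tcstv3 and AF067061 than any GFP embryo. Tcstv3 had 0.827, 12.9 and 367 FPKM in the lowest, median and highest of 27 antisense embryos, against 0.329, 6.45 and 28.5 FPKM in 28 GFP embryos. Tcstv1 had 1.00, 6.20 and 117 FPKM in antisense embryos, and in GFP embryos it was listed at 0 in 1 embryo, with a median of 3.08 and a highest value of 9.36 FPKM. AF067061 had 0.440, 8.54 and 131 FPKM in antisense embryos, and in GFP embryos it was listed at 0 in 1 embryo, with a median of 3.52 and a highest value of 14.95 FPKM. Above the highest GFP embryo were 10 of 27 antisense embryos in Tcstv1, 9 of 27 in Tcstv3 and 9 of 27 in AF067061, and 9 embryos were above it in all 3 genes. The other antisense embryos lay within the range of GFP embryos in Tcstv3. The share of all features with as many antisense embryos above the highest GFP embryo is not given here. The counts are therefore not shown to be particular to these genes.

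The same 9 embryos can be followed across the family. Embryo 6 had 367 FPKM of Tcstv3, 117 of Tcstv1, 98.2 of AF067061, 749 of AF067063 and 189.9 of Gm20767. Embryo 20 had 235 FPKM of Tcstv3, 103 of Tcstv1, 131 of AF067061, 1141 of AF067063 and 178 of Gm20767. Embryo 28 was the lowest of the 9 in Tcstv1, AF067061 and AF067063, at 9.80, 17.05 and 191 FPKM. The 9 embryos came from 4 batches, with 4 of 5 antisense embryos in batch M, 2 of 5 in N, 2 of 4 in Q and 1 of 3 in J, and 0 of 4 in K, 0 of 4 in L and 0 of 2 in P.

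AF067063 and Gm20767 had fewer antisense embryos above the highest GFP embryo. AF067063 had 44.97, 191 and 1141 FPKM in antisense embryos and 51.5, 156 and 993 FPKM in GFP embryos, and 1 antisense embryo was above the highest GFP embryo. Gm20767 had 24.5, 58.2 and 189.9 FPKM in antisense embryos and 18.5, 52.8 and 154 FPKM in GFP embryos, with 3 antisense embryos above the highest GFP embryo. Their groups overlapped over nearly the whole range.

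**Figure D4:**
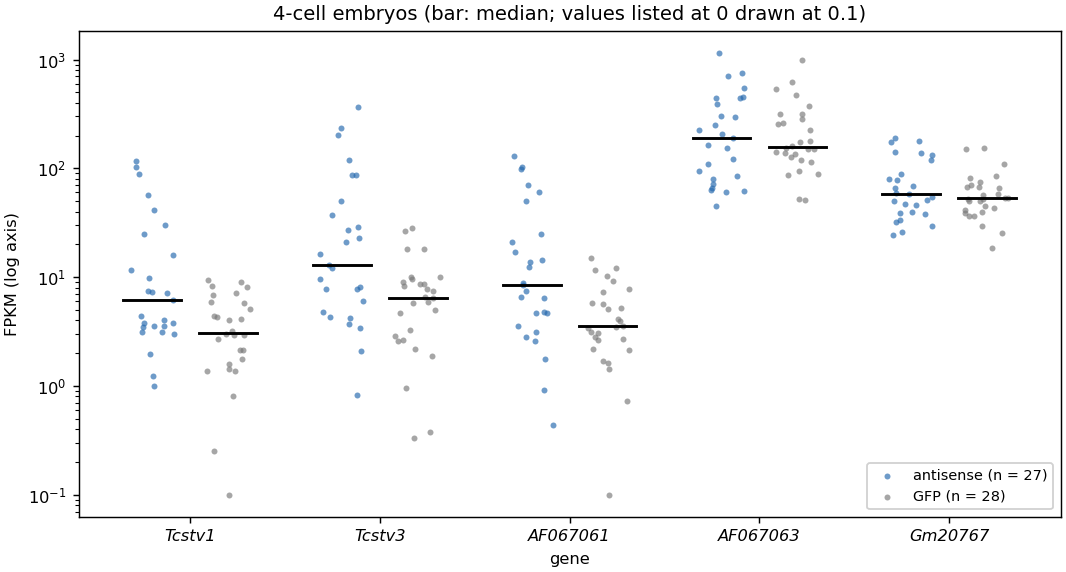
FPKM (log axis) of each gene in 27 antisense and 28 GFP embryos at the 4-cell stage, 1 point per embryo with a bar at the median and values listed at 0 drawn at 0.1. In Tcstv3, 9 antisense embryos lie above the highest GFP embryo at 28.5 FPKM and the others lie within the range of GFP embryos. Above the highest GFP embryo are 1 antisense embryo in AF067063 and 3 in Gm20767.

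On log2(FPKM + 1), a scale that understates changes of low genes, limma with batch as a term gave a difference of antisense from GFP of 1.57 ± 0.45 (SE) for Tcstv3, with p = 0.000935 and an adjusted p of 0.175 over 7237 features. The difference was 1.29 ± 0.38 for AF067061 and 1.24 ± 0.37 for Tcstv1, each with an adjusted p of 0.180. Tcstv1 and AF067061 averaged 3.93 and 4.91 FPKM in GFP embryos, so they passed the filter of a mean of 5 FPKM through the antisense group. With no filter on low values, the adjusted p over 20380 features was 0.319 for each of Tcstv3, AF067061 and Tcstv1. With the filter, the difference was 0.15 ± 0.21 for Gm20767 (adjusted p 0.861) and -0.0039 ± 0.30 for AF067063 (adjusted p 0.998). The 95% intervals were -0.27 to 0.56 and -0.59 to 0.59. limma called 2 of 7237 features, or 0.0276%, and 0 of the 5 members. With no filter limma called 2 of 20380 features, or 0.00981%, and 0 of 5 members. Without adjustment and with no filter, 3 of 5 members had a p under 0.05 and were higher with antisense, as had 4.94% of all features. Leaving out antisense embryos 9 and 19 gave 1.75 for Tcstv3 and 10 features called.

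Within batches, the mean of Tcstv3 was higher with antisense in 5 of 7 batches and lower in 2. In batch M it averaged 101.2 FPKM in 5 antisense embryos and 9.03 FPKM in 4 GFP embryos, and in batch Q 83.02 FPKM in 4 antisense and 6.35 FPKM in 5 GFP embryos. In batch K it averaged 5.54 FPKM in 4 antisense and 7.99 FPKM in 4 GFP embryos, and in batch P 3.99 FPKM in 2 antisense and 9.28 FPKM in 4 GFP embryos. Tcstv1 was higher with antisense in 6 of 7 batches, AF067061 in 5 of 7, AF067063 in 4 of 7 and Gm20767 in 3 of 7.

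Antisense embryos varied more than GFP embryos in the members named above, and that difference did not pass the test. The SD of Tcstv3 was 169% of its mean in antisense embryos and 89.5% in GFP embryos, and that of Tcstv1 was 155% and 69.3%. After subtraction of batch means, the mean absolute deviation of Tcstv3 from the group median was 1.38 in antisense and 0.99 in GFP embryos. These are on the log2 scale (limma on absolute deviations, adjusted p = 0.979). All 5 members had the larger estimate in antisense embryos, by 0.13 to 0.39, and all had an adjusted p of 0.979. The test called 0 of 7237 features (0%), and 261 had an unadjusted p under 0.05. Without subtraction of batch means the differences were 0.23 to 0.79, and the test called 0 of the 5 members. In that setting 3 of the 5 had an unadjusted p under 0.05, and the share over all features is not given here.

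The authors' deposited table of the 4-cell comparison gave group FPKM of 24.6 for Tcstv3 in the injected group and 2.67 in the control group, with a q-value of 0.00808, and marked this gene as significant, 1 of 72 so marked among 6465 tested. In the authors' deposited table Tcstv1 (5.10 injected, 1.14 control) and AF067061 (9.11 injected, 1.83 control) were not tested. For AF067063 the authors' deposited table gave 304 FPKM injected and 287 control with a q-value of 0.946, and for Gm20767 it gave 8.81 injected and 7.53 control with a q-value of 0.885. Those group values differed from the means of single embryos by an amount that varied with the gene, for a reason not given. Gm20767 averaged 77.2 FPKM in antisense embryos and 61.1 FPKM in GFP embryos, far above the authors' values. AF067063 averaged 279 FPKM in antisense and 242.5 FPKM in GFP embryos, near the authors' values. The percentiles of Gm20767 at the 4-cell stage, given above, rest on the FPKM of single embryos.

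**Figure D5:**
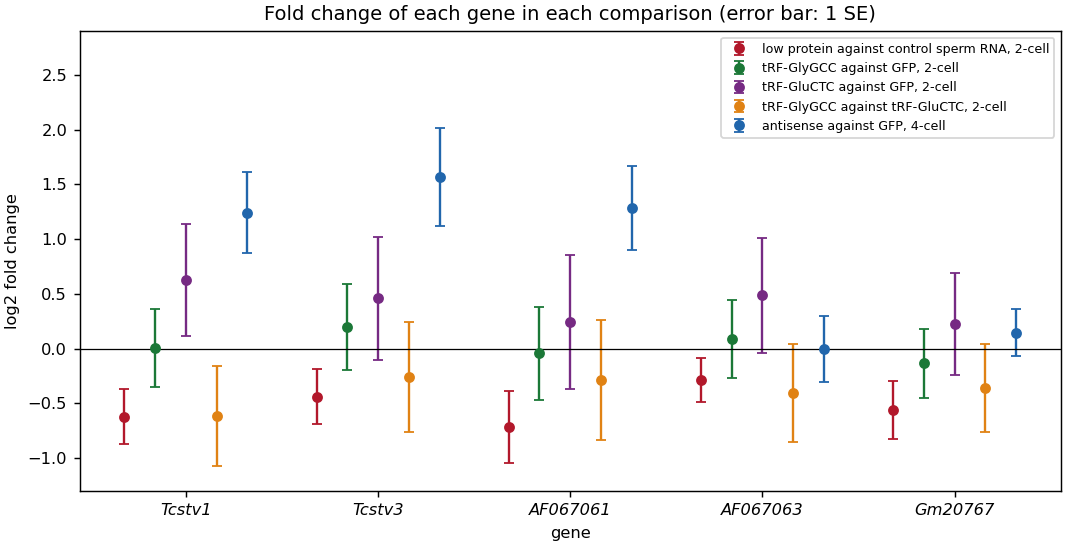
Log2 fold change of each gene (first-named group over the second) in the 5 comparisons, with 1 SE, from edgeR for 2-cell embryos and from limma on log2(FPKM + 1) for 4-cell embryos. Low protein estimates lie between -0.71 and -0.29, and antisense estimates are 1.24 to 1.57 for Tcstv1, Tcstv3 and AF067061 and near 0 for AF067063 and Gm20767; no estimate passed its adjusted threshold.

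Levels of the members were positively related across embryos in each of the 3 tables, least so at the 4-cell stage. On log2 levels with batch means subtracted, Spearman's rho between members had a median over 10 pairs of 0.87 in 88 sperm RNA embryos (0.61 to 0.94), 0.78 in 43 tRF and GFP embryos (0.56 to 0.89) and 0.59 in 55 embryos at the 4-cell stage (0.44 to 0.80). These are descriptions, since the members share libraries, depth and reads that could be given to either gene of a pair. Tcstv1 and Tcstv3 had a rho of 0.93 in sperm RNA embryos (Pearson's r 0.94, and 0.93 without the 2 embryos farthest from the median). AF067061 and Gm20767 had a rho of 0.94. AF067063, the most distant in sequence, had a rho between 0.61 and 0.83 to the other members in sperm RNA embryos. Within groups, all 10 pairs had a positive rho in each of the 6 groups with more than 10 embryos, and the 6 tRF-GluCTC embryos were not taken alone. The median was 0.76 in antisense and 0.47 in GFP embryos at the 4-cell stage, where AF067063 and Gm20767 had a rho of 0.03 in GFP embryos.

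Some of the genes outside the family that were most like Tcstv3 lie in the same cluster. In sperm RNA embryos the 5 highest rho to Tcstv3 were those of B020031M17Rik (0.91), BC147527 (0.89), Gm5891 (0.84), Gm4858 (0.80) and Gm6902 (0.80). B020031M17Rik (119949357 to 119950806, minus strand) and BC147527 (120300392 to 120308779, plus strand) are protein-coding genes of the same chromosome 13 cluster, and 2.3% and 0.3% of their 50-base windows occur in a member. At the 4-cell stage the 5 highest were Gm11544 (0.78), Tmem92 (0.77), A530032D15Rik (0.76), A630075F10Rik (0.72) and 1110008J03Rik (0.72), and B020031M17Rik had 0.66. Zscan4d, a zinc finger gene of the 2-cell stage, had a rho to Tcstv3 of 0.58 in sperm RNA embryos, 0.29 in tRF and GFP embryos and 0.44 at the 4-cell stage. Total counts had a rho to the members of -0.46 to -0.31 in sperm RNA embryos and of -0.34 (Tcstv1) to 0.0828 (AF067063) in tRF and GFP embryos, and their part in the likeness was not tested.

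Other genes of the 2-cell stage were counted over a list of 64 that holds none of the members. It includes Gm21761, with which Gm20767 shares 60.8% of its windows of 50 bases. In the low protein comparison 46 list genes were tested, and 8 had a higher and 38 a lower estimate in low protein embryos. Their median was -0.20, against 0.02 and 53.9% higher over all genes. edgeR called 0 of the 46, against 0.0917% of all genes. At an unadjusted p under 0.05 were 1 higher and 3 lower, against 1.53% of all genes on the lower side. The smallest p on the lower side were those of A430089I19Rik, at 54.4 ± 80.6 CPM in low protein and 143 ± 254 CPM in control embryos (SD; log2 difference -1.59 ± 0.52 SE, adjusted p 0.702), and Zscan4d, at 255 ± 243 CPM in low protein and 354 ± 301 CPM in control embryos (-0.64 ± 0.25, adjusted p 0.966). On the higher side they were Zfp750, at 62.9 ± 92.6 CPM in low protein and 34.8 ± 26.5 CPM in control embryos (0.72 ± 0.27, adjusted p 0.901), and Eif4e3, a cap-binding translation factor gene, at 175 ± 158 CPM in low protein and 141 ± 94.6 CPM in control embryos (0.24 ± 0.19, adjusted p 1.0).

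With tRF-GlyGCC against GFP, 17 list genes had higher and 29 lower estimates (median -0.09), against a median of 0.04 and 55.0% higher over all genes. With tRF-GluCTC against GFP 29 were higher and 17 lower (0.23), against -0.0058 and 49.6% higher over all genes. With tRF-GlyGCC against tRF-GluCTC 12 were higher and 34 lower (-0.34), against 0.05 (median) and 54.4% higher over all genes. edgeR called 0 of 46 in each. Against 3.24%, 3.46% and 2.2% of all genes, 0, 0 and 1 list genes had an unadjusted p under 0.05. That gene was Tdpoz2, at 66.9 ± 82.005 CPM with tRF-GlyGCC and 126.3 ± 148 CPM with tRF-GluCTC (-1.70 ± 0.56, adjusted p 1.0). With tRF-GlyGCC against GFP, Tdpoz2 (-0.81 ± 0.46) and BC080695 (-0.55 ± 0.34) had the smallest p on the lower side, and Eif4e3 (0.28 ± 0.30) and Gm2016 (0.42 ± 0.50) on the higher side. With tRF-GluCTC against GFP they were Gm13119 (-1.02 ± 0.57) and BC080695 (-0.64 ± 0.52) on the lower side, and Ubtfl1 (0.53 ± 0.40) and Rfpl4b (0.81 ± 0.62) on the higher side. Between the tRFs, Usp17lc (-0.66 ± 0.48) came next on the lower side, and Gm13119 (0.90 ± 0.51) and Eif4e3 (0.54 ± 0.40) had the smallest p on the higher side.

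At the 4-cell stage the list was counted with no filter on low values, since low genes that are high in antisense embryos pass one more easily. Of 49 list genes tested, 42 had a higher and 7 a lower estimate with antisense, with a median of 0.59, against 0.0078 and 53.7% higher over all 20380 features. limma called 0 of the 49, against 0.00981% of all features. At an unadjusted p under 0.05 were 23 higher and 0 lower, against 4.94% of all features on the higher side. Gm2016 had 12.035 ± 17.03 FPKM in antisense and 3.22 ± 2.19 FPKM in GFP embryos (SD; 1.03 ± 0.30 SE, adjusted p 0.176). Gm5662 had 10.4 ± 14.8 FPKM in antisense and 2.71 ± 1.95 FPKM in GFP embryos (0.99 ± 0.30, adjusted p 0.180). Like Tcstv1, both were under 5 FPKM in GFP embryos and passed the filter through the antisense group, and with no filter their adjusted p was 0.319. On the lower side were Pramel6, at 348 ± 162 FPKM in antisense and 399.6 ± 155 FPKM in GFP embryos (-0.21 ± 0.18, adjusted p 0.722 with the filter), and Ddit4l, at 13.4 ± 9.9998 FPKM in antisense and 15.5 ± 9.78 FPKM in GFP embryos (-0.28 ± 0.27, adjusted p 0.765 with the filter). With no filter, limma gave Pramel6 and Ddit4l an adjusted p of 0.8415 each. The summed level of the 9 markers of the 2-cell stage ran from 45.3 to 1128 FPKM in antisense embryos, with a median of 175, and from 17.1 to 868 FPKM in GFP embryos, with a median of 71.7. Their part in the levels of the Tcstv genes was not tested.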

How the data were processed

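The series measured RNA in single embryos, and the labels' protocols name a single-cell RNA-seq kit with Nextera libraries. The submitters' processing notes name Bowtie and the mm10 build. Versions, the counting tool and gene models are not stated in the sources used here. For 2-cell embryos the authors deposited expected counts in 2 tables, where 0 is shown as 0.1. The 4-cell table holds FPKM deposited by the authors, with 0 shown as 0.001. The authors also deposited a comparison of the 4-cell embryos, with an FPKM per group and a p-value and q-value per feature, from which values were only copied. Its group FPKM differ from the means of single embryos by an amount that varies with the gene. Of 28 antisense embryos in the labels, 27 were matched to a column and 1 was not analysed here.

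After rounding to integers, expected counts went into edgeR 4.0.16 in R 4.3.3 (TMM scaling, filterByExpr, quasi-likelihood test, batch as a term), with the 3 groups of the tRF table in 1 fit. Levels are TMM-scaled CPM. Intervals of 95% are the estimate and its SE under a normal approximation. The 4-cell values went into limma 3.58.1 as log2(FPKM + 1), keeping features that averaged 5 FPKM or more, with the same batch term. Tests were two-sided, with p-values adjusted by Benjamini and Hochberg over all genes tested and a threshold of 0.05. The scripts were tested on simulated data. Spread was tested with limma on absolute deviations from the group median, after subtraction of batch means and with the factor n/(n-1). Precision rests on the number of embryos, and totals were 644040 to 4563600 counts per 2-cell embryo. Coding identity came from global alignments with Biopython 1.88, and uniqueness from windows of 50 bases in GENCODE transcripts. Percentiles used the longest transcript of each gene. Alternatives covered batch, scaling, filters, pseudocounts, DESeq2 1.42.0, a replicate block and left-out batches or embryos. Embryo numbers follow accession order and do not pair embryos. Named were all members, the 5 other genes with the highest rho to Tcstv3 in the sperm RNA and 4-cell tables and, of the 2-cell list, the 2 genes of smallest p in each direction. Members and lists were chosen with earlier results of these data known.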

Additional observations from a re-analysis of the deposited data

Results flagged for a closer look

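In the group of 6 tRF-GluCTC embryos, embryo 6 stood far above the other 5 in Tcstv1, Tcstv3 and AF067061, by a gap larger than Dixon's test allows at the 95% level. It had 607 CPM of Tcstv1, where the next embryo had 236 CPM. It had 977 CPM of Tcstv3, against 405 CPM in the next embryo, and 828 CPM of AF067061, against 328 CPM in the next. The test was run on CPM and not on the log2 scale used for the other tests. Chance alone marks about 1 group in 20 only where values are normally distributed, which was not checked for these CPM. The marks therefore hold for the CPM scale alone. The genes share the embryo and part of their reads, so the 3 marks are not independent. In AF067063 the same embryo was the highest, at 1287 CPM with the next at 583 CPM, within what the test allows. In Gm20767 it was level with embryo 1, at 721.6 and 722.9 CPM.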

How the results depend on the processing

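None of the 5 members passed an adjusted p of 0.05 in any comparison under any alternative that was run. For Tcstv3, AF067061 and Tcstv1 in antisense against GFP embryos the lowest adjusted p over 71 alternatives was 0.0723 for each, the highest were 0.535, 0.560 and 0.525, and the log2 differences ran from 1.18 to 1.94, 0.91 to 1.68 and 0.88 to 1.55. All 5 members kept the lower estimate with low protein sperm RNA under all 13 alternatives, from -1.29 (AF067061 without batch E) to -0.17 (AF067063 without batch C).

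The count of genes called over all genes moved more. In the low protein comparison, 8 genes became 16 without the batch term, 17 by DESeq2, 14 without batch A, 15 without batch C, and 0 without batch E, without batch F and without control embryos 22 and 26, those of the lowest totals (497, 208 and 329 genes had an unadjusted p under 0.05). Leaving out batch D, chosen after seeing the data, gave 10. DESeq2 called 1 gene in tRF-GluCTC over GFP and 1 in tRF-GlyGCC over tRF-GluCTC, where edgeR called 0. At the 4-cell stage, 2 features became 1 without batch L, 4 without batch M, 4 without batch P, 0 without batch Q (586 at an unadjusted p under 0.05) and 10 without antisense embryos 9 and 19. Leaving out 1 embryo at a time gave 2 to 8, with 8 without antisense embryo 19 and 4 without GFP embryo 13 or 15. The cause of these moves was not tested. With the replicate block (batch and a number from the title, the F number at the 2-cell stage and the embryo number at the 4-cell stage, which the labels do not say pairs embryos) the low protein comparison called 0 genes, with 332 under 0.05 before adjustment, and the antisense comparison called 2.

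Several estimates changed sign, among them values up to 0.49 in size in tRF-GluCTC over GFP. AF067063 in antisense against GFP embryos, at -0.0039, became 0.0080 without the batch term, 0.00075 with a pseudocount of 5, 0.0806 with quantile normalization, 0.11 with the replicate block, 0.18, 0.16 and 0.0515 without batches K, N and P, 0.16 without embryos 9 and 19, and -0.14 to 0.0826 with 1 embryo left out. Gm20767 became -0.0834 without batch M. For tRF-GlyGCC against GFP, AF067063 became -0.13 without the batch term, -0.0521 with the replicate block and -0.0480 without batch H; Tcstv1 became -0.0665 with library size alone, -0.10 with the block and -0.47 without batch G; Tcstv3 became -0.24 without batch G; AF067061 became 0.48 without batch H. Leaving out 1 embryo gave ranges of -0.37 to 0.19 (AF067061), -0.22 to 0.17 (AF067063), -0.28 to 0.0300 (Gm20767), -0.36 to 0.20 (Tcstv1) and -0.20 to 0.40 (Tcstv3). Without the batch term Tcstv3 and AF067063 became -0.10 and -0.21 in tRF-GluCTC over GFP, and 0.29 and 0.0887 in tRF-GlyGCC over tRF-GluCTC. With 1 embryo left out, AF067061, AF067063 and Tcstv3 ran from -0.28 to 0.53, -0.0388 to 0.70 and -0.13 to 0.71 in tRF-GluCTC over GFP, and from -0.45 to 0.23, -0.62 to 0.12 and -0.44 to 0.32 in tRF-GlyGCC over tRF-GluCTC, each changing sign without tRF-GluCTC embryo 6 alone. In the spread tests Tcstv3 became 0.0698 without subtracting batch means (low protein) and AF067063 became -0.0088 without batch Q (antisense). With the shortest annotated transcript as length, chosen after seeing the data, the median AF067063 to Tcstv3 ratio of 2-cell GFP embryos was 1.14 in place of 1.16 and that to Gm20767 1.23 in place of 2.29, and the percentiles were lower in all 5 members, most in Tcstv1 (72.9 in place of 94.8).

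The FPKM keep no depth, so how far counting error sets the low levels of Tcstv1 and AF067061 at the 4-cell stage is unknown. Reads shared between near-identical copies limit every single-gene level in this family.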
